A study of Mus musculus with 10 samples.

Results

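Ddx5 and Ddx17, a pair of closely related RNA helicases, were followed in single-cell RNA counts of the mouse pituitary. They were taken by name as 2 of the 15270 gene symbols that all 10 count tables list (44288 symbols appear in at least 1 table). All mice were CD1. Of the 10X Genomics libraries, 1 came from 8-week WT females and 1 from 8-week WT males. The 8 Drop-seq libraries comprised 8-week WT females and 8-week WT males (n = 2 each, titled WT-8wk-0324-female, WT-8wk-0511-female, WT-8wk-0324-male and WT-8wk-0511-male), 8-week females of genotype mt/hGRF (n = 1), a 13-week virgin WT female (n = 1) and 13-week lactating WT females (n = 2). The mt/hGRF transgene places the human growth hormone releasing factor gene under a metallothionein promoter, which is active well beyond the hypothalamus. Per the study, the 8-week Drop-seq suspensions, the transgenic one included, each combined more than 1 mouse, as did lactating replicate 2, so their values are averages over mice. Pituitary tissue was dissociated without enzymes, and melanotropes, the cells of the intermediate lobe, were among the classes found.

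Ddx5 and Ddx17 belong to the DEAD-box family of ATP-dependent RNA helicases and share much of their sequence. Both proteins act in pre-mRNA splicing, take part in microRNA processing with Drosha, and serve as coactivators of transcription factors, among them the estrogen receptor. In the pituitary, estrogen is a main driver of lactotropes, the cells that make prolactin (Prl), whereas somatotropes make growth hormone (Gh) under hypothalamic releasing hormone. The study named both helicases among the genes that marked its lactotrope cluster, a choice made on cells of this series, so no library is taken as independent of it.

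Ddx5 lies at chr11:106780355-106789185 on the minus strand (GENCODE vM21 on GRCm38, 9 annotated transcripts) and Ddx17 at chr15:79527736-79546741 on the minus strand (4 transcripts). The start of Ddx5 is 66 bases from that of Cep95, which is transcribed in the other direction, and the 3' end of Ddx17 overlaps that of Kdelr3, on the opposite strand, by 4 bases. Cep95 was counted at 0.20 to 0.91 and Kdelr3 at 0.14 to 0.46 UMIs per 10000 in the 10 libraries, far below either helicase. The 300-base windows around the annotated starts (250 bases before and 50 after, from RefSeq on GRCm38.p6) are shown because both helicases had their highest mean in the same cell class. The capitals mark every match, on either strand, to 5 short motifs: the CCAAT box CCAAT, the TATA box TATAAA, the GC box GGGCGG, the cyclic AMP response element core TGACGT and the estrogen response element arm GGTCA.
Ddx5, chr11:106789136-106789435, minus strand: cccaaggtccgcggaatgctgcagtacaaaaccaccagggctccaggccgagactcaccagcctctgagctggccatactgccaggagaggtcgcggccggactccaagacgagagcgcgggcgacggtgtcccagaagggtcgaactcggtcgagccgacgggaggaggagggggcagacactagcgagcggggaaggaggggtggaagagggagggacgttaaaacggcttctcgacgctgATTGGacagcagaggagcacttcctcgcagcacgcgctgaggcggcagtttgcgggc
Ddx17, chr15:79546692-79546991, minus strand: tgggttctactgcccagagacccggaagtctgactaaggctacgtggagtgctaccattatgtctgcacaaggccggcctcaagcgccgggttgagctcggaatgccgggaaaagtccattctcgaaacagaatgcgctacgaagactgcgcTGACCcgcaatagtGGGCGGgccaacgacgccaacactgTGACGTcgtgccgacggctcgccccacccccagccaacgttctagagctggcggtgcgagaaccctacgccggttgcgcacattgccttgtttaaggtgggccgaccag
The Ddx5 window held 1 match, a CCAAT box on the opposite strand 7 bases before the start. The Ddx17 window held 1 GC box, 1 cyclic AMP response element core and, on the opposite strand, 1 estrogen response element arm, and no match overlapped another. No motif occurred in both windows, and neither held TATAAA. Of the 32851 promoter windows of this length, 37.4% held the CCAAT box, 35.7% the GC box, 40.5% the estrogen response element arm, 13.6% the TATA box and 7.51% the cyclic AMP response element core. GC content was 65.3% for Ddx5 and 60.7% for Ddx17, against a median of 52.7% over all windows. These are letters in a window and not measured binding.

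The counts are of unique molecular identifiers (UMIs), each marking 1 captured RNA molecule. Because Prl and Gh alone can fill a large share of a cell, each level below is the number of UMIs of the gene per 10000 UMIs after the hormone genes (Gh, Prl, Pomc, Tshb, Lhb, Fshb and Cga) were left out of the total. A total of 22553 cells was analysed, 3245 of them on the 10X platform, after 879 barcodes rich in ribosomal protein pseudogenes had been set aside, a step added after the data were seen. Median depth was 534 to 1234 UMIs per cell by library, and 1 library held 661539 to 3660081 non-hormone UMIs. Libraries shared at most 1 cell barcode, except the 10X pair, which shared 6. The set-aside barcodes held Ddx5 at 0 to 9.73 UMIs per 10000 and, on the 10X platform, Malat1, a nuclear RNA, at 5.10 and 7.10 against 1796 and 2174 in the analysed cells, so each helicase call that changed with them kept is also given that way.

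In the analysed cells 43252 UMIs of Ddx5 and 10363 of Ddx17 were counted. Ddx5 was seen in 15488 cells, Ddx17 in 6863 and both in 5646. On the 10X platform Ddx5 stood at 24.6 (female) and 21.0 (male) UMIs per 10000. On the Drop-seq platform it stood at 17.8 in the mt/hGRF library, 30.7 in the virgin, 26.2 and 20.1 in the lactating libraries, 25.8 in WT-8wk-0324-female, 26.2 in WT-8wk-0511-female, 24.1 in WT-8wk-0324-male and 26.6 in WT-8wk-0511-male. The lowest and highest Ddx5 libraries were thus both Drop-seq, with the 10X pair between them.

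Ddx17 stood at 3.06 and 2.84 UMIs per 10000 in the 10X female and male. In the Drop-seq libraries it stood at 6.58 (mt/hGRF), 5.36 (virgin), 6.602 and 5.05 (lactating), 5.90 (WT-8wk-0324-female), 9.85 (WT-8wk-0511-female), 6.02 (WT-8wk-0324-male) and 8.61 (WT-8wk-0511-male). Every Drop-seq library was above both 10X libraries, and WT-8wk-0511-female and WT-8wk-0511-male were the highest. The exact Poisson 95% intervals, which cover counting error only, were narrow (2.84 to 3.30 in the 10X female and 9.31 to 10.4 in WT-8wk-0511-female).

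**Figure D1:**
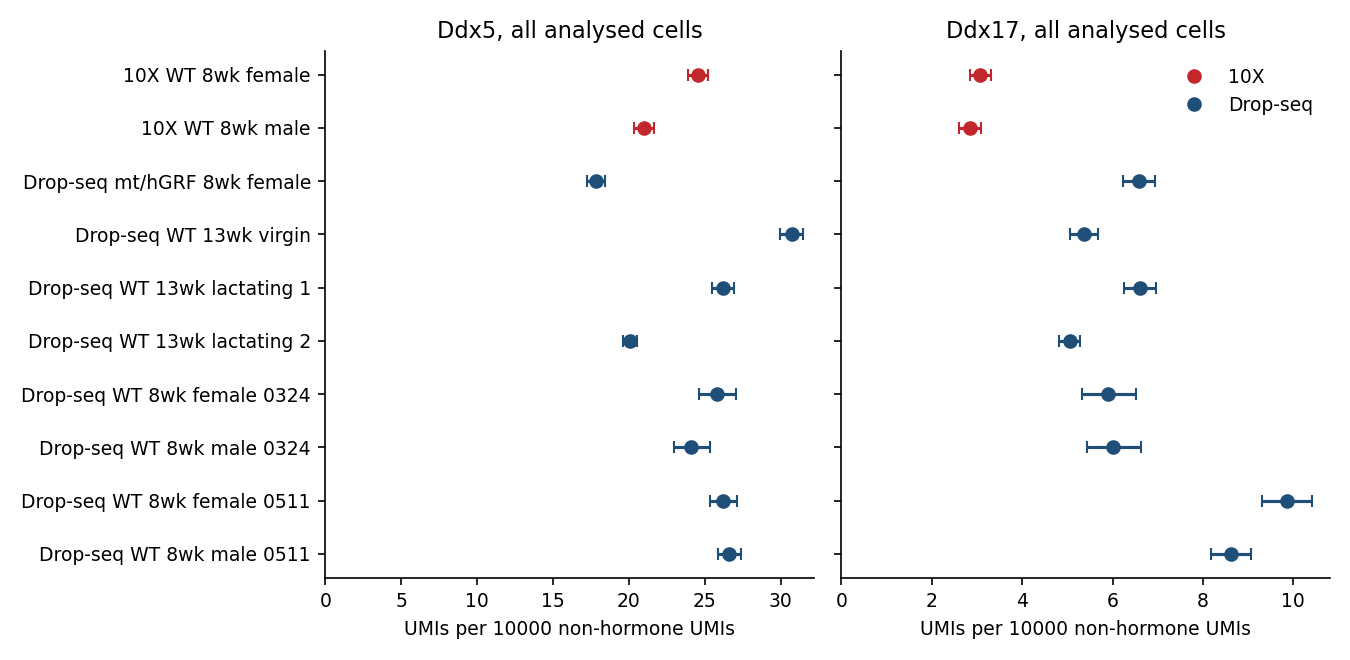
Level of Ddx5 (left) and Ddx17 (right) in each of the 10 libraries, in UMIs per 10000 non-hormone UMIs over all analysed cells, with exact Poisson 95% intervals as bars and the platform by colour. For Ddx17 both 10X libraries (3.06 and 2.84) lie below all 8 Drop-seq libraries (5.05 to 9.85), whereas for Ddx5 they lie within the Drop-seq range.

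Between platforms the helicases differed in behaviour. Among the 8-week WT libraries, edgeR's quasi-likelihood test put Ddx17 higher by Drop-seq than on 10X by 1.04 on the log2 scale (SE 0.31, adjusted p = 0.0329) and Ddx5 at -0.14 (SE 0.27, adjusted p = 0.728). Thus 1 of the 2 helicases was called higher, where 11.5% of the 12417 genes tested were. Malat1 went the other way, at -1.63 (adjusted p = 0.00338). The Ddx17 call was lost without either 10X library (adjusted p = 0.311 without the female and 0.306 without the male), without WT-8wk-0511-female (0.113) or WT-8wk-0511-male (0.0502), and with the pseudogene-rich barcodes kept (0.63, adjusted p = 0.259). Among 51 other RNA helicase genes, all tested, 18 were higher by Drop-seq and 4 lower (median 0.48 against 0.04 over all genes). Drop-seq counts were made on exons and the 10X counts by Cell Ranger, so the platform cannot be told apart from its processing. Counted as UMIs of Ddx17 per 100 of Ddx5, the 10X libraries had 12.5 and 13.5 and the Drop-seq libraries 17.5 to 37.6, a ratio of counts and not of transcript amounts.

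Cell classes were then gated from marker genes that include no hormone and neither helicase. The lactotrope and somatotrope markers came from the study's own marker table, chosen there on the 10X libraries, so the gate is not independent of these data. A cell was assigned with at least 2 marker UMIs from 2 different markers when no other class matched or passed its score, and no doublet caller was run. Red blood cells were gated by another rule, before any other class, where hemoglobin genes and Alas2 made up at least 10% of all UMIs. The gate assigned 9489 of the cells, from 26.9% of them in lactating replicate 2 to 81.8% in the 10X female. Ungated cells also held Prl, at a mean of 7.42% of all their UMIs (n = 10), against 8.54% in gated lactotropes (n = 9). On the 10X platform these means were 6.53% and 5.58%. Results for gated lactotropes thus cover cells with enough marker UMIs and not all cells with Prl. As a check outside the gate, Gh was higher in gated somatotropes than in gated lactotropes in 10 of 10 libraries, and Prl was higher in gated lactotropes in 9 of 10. The exception was the 10X female, where Prl made up 4.17% of all UMIs of gated lactotropes and 5.98% of those of gated somatotropes. The lactotrope against somatotrope difference is therefore given without it too, but the class order is not.

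Among classes with at least 20 cells in several libraries, Ddx5 had its highest mean in lactotropes, at 33.7 ± 7.25 UMIs per 10000 (SD over 9 libraries). Gonadotropes followed at 28.8 ± 6.68 (n = 10), melanotropes at 26.3 ± 6.63 (n = 10), proliferating cells at 23.8 ± 7.14 (n = 4) and somatotropes at 23.0 ± 4.67 (n = 10). Below them came stromal cells at 19.3 ± 2.83 (n = 6), stem and supporting cells at 18.8 ± 7.88 (n = 10), macrophages at 11.3 ± 4.04 (n = 10) and red blood cells, which have lost their nuclei, at 2.02 ± 1.93 (n = 6). Hemoglobin genes stayed in the totals. In gated red blood cells Hbb-bs, Hba-a1 and Hbb-bt averaged 4305, 2629 and 1105 UMIs per 10000 over 10 libraries. That lowers every other gene there by arithmetic, so the place of red blood cells in the order cannot be told apart from hemoglobin. Between neighbours in this order, lactotropes exceeded gonadotropes in 8 of 9 libraries (exact sign-flip permutation test over libraries, two-sided, adjusted p = 0.0469) and stem and supporting cells exceeded macrophages in 9 of 10 (exact sign-flip test, adjusted p = 0.0417). The other 6 pairs did not pass. In 2 of them every library had the same sign: macrophages exceeded red blood cells by a mean of 3.04 on the log2 scale (SD 1.82, 6 of 6 libraries, exact sign-flip p = 0.0312, adjusted p = 0.1) and melanotropes exceeded proliferating cells by 0.23 (SD 0.13, 4 of 4, exact sign-flip p = 0.125). Both p-values are the smallest that so few libraries can give. P-values were adjusted over the 16 neighbour pairs of both genes.

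The gate also held classes with too few cells for this order. Pituicytes, the glia-like cells of the posterior lobe, numbered 3 to 17 in each of 8 libraries, and their Ddx5 ran from 19.9 to 55.9 UMIs per 10000 and their Ddx17 from 0 to 25.3. In lactating replicate 2, which held the most pituicytes (17), Ddx5 stood at 30.5 in them and 22.6 in lactotropes. The lowest pituicyte level of Ddx5, 19.9, lay below the lactotropes of every library (22.6 or above), so pituicytes were not above lactotropes throughout. Corticotropes, cells of the anterior lobe that make Pomc, as melanotropes also do, reached 20 cells only in the virgin library (22 cells), with Ddx5 at 18.0 and Ddx17 at 1.36, under the lactotropes of that library (38.1 and 6.97). T and natural killer cells reached it only in the mt/hGRF library (29 cells), with Ddx5 at 11.3 and Ddx17 at 1.48.

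For Ddx17, lactotropes also had the highest mean and red blood cells, with hemoglobin in their totals, the lowest. Lactotropes stood at 8.36 ± 3.49 UMIs per 10000 (n = 9), gonadotropes at 7.95 ± 3.25, melanotropes at 6.06 ± 2.08, stromal cells at 5.88 ± 1.59 (n = 6), somatotropes at 5.87 ± 1.95, proliferating cells at 4.98 ± 2.18 (n = 4), stem and supporting cells at 3.69 ± 1.10, macrophages at 1.49 ± 0.77 and red blood cells at 0.69 ± 0.60 (n = 6, n = 10 where not given). Gonadotropes exceeded melanotropes in 9 of 10 libraries (exact sign-flip permutation test, adjusted p = 0.0417) and stem and supporting cells exceeded macrophages in 10 of 10 (adjusted p = 0.0312, exact sign-flip test). These means are over different sets of libraries: in the 6 libraries with both, stromal cells were above somatotropes in 2 (mean log2 ratio -0.03). The remaining 6 neighbour pairs, lactotropes and gonadotropes among them, did not pass, and macrophages exceeded red blood cells by 1.33 on the log2 scale (SD 0.73, 5 of 5 libraries, exact sign-flip p = 0.0625, the smallest that 5 libraries can give, adjusted p = 0.167). A further library was left out of that pair because its red blood cells held no Ddx17 UMI and gave no finite log2 ratio. Cells were also thinned to 300 of all their UMIs, hormone UMIs included, and scored for at least 1 UMI. Thinning kept 1625 of 1628 and 1612 of 1617 cells of the 10X female and male and every Drop-seq cell. No neighbour pair then passed the threshold for either gene. Because hormones, and in red blood cells hemoglobin, fill part of the 300 UMIs, thinned shares also depend on the share of these RNAs in a class. Gh and Prl averaged 18.1% and 2.74% of all UMIs in somatotropes (n = 10) and 4.34% and 8.54% in lactotropes (n = 9). Thinned shares were 58.6% ± 7.21 of lactotropes, 41.7% ± 6.79 of somatotropes, 23.8% ± 7.96 of macrophages and 6.43% ± 4.31 of red blood cells for Ddx5. For Ddx17 they were 19.95% ± 8.41, 14.1% ± 4.18, 4.29% ± 3.22 and 1.78% ± 2.05. Macrophages were above red blood cells in both genes' thinned shares in 6 of 6 libraries (exact sign-flip test, adjusted p = 0.1 for each).

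**Figure D2:**
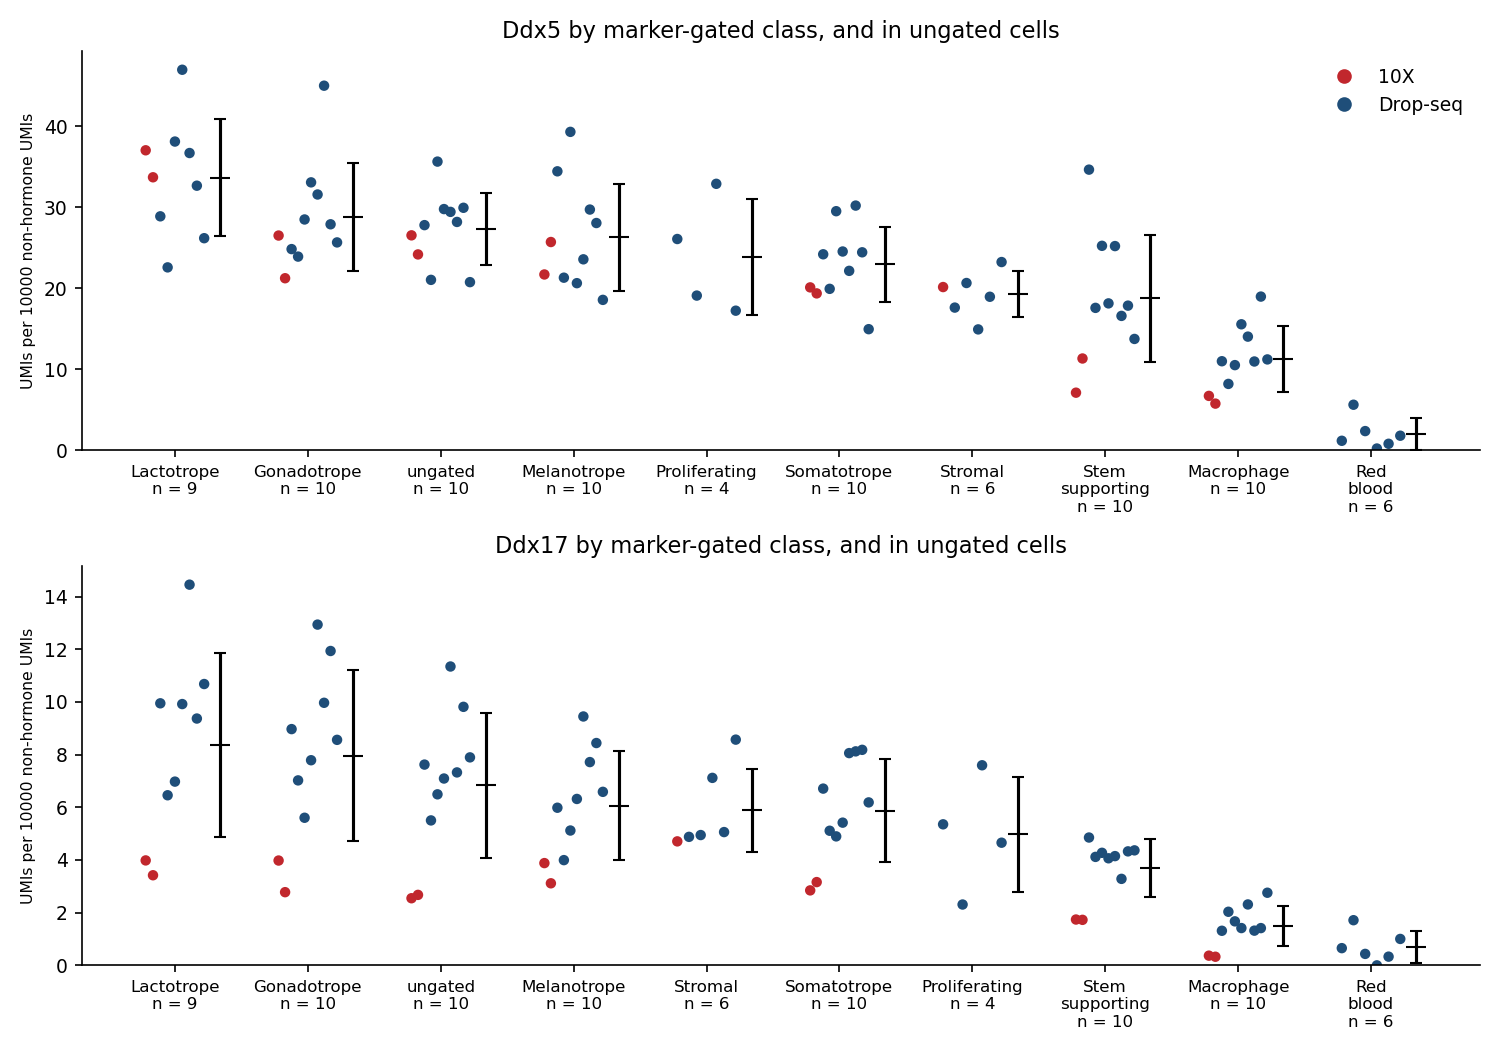
Ddx5 (top) and Ddx17 (bottom) in each gated class and in ungated cells, in UMIs per 10000 non-hormone UMIs, with 1 point per library of at least 20 cells coloured by platform and the mean with SD beside them. Lactotropes have the highest mean for both genes (33.7 and 8.36) and red blood cells the lowest (2.02 and 0.69), and for Ddx17 the 10X points lie under most Drop-seq points of each class. Hemoglobin genes are kept in the totals, which lowers the levels of red blood cells.

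Droplets without a cell give a measure of free RNA on the 10X platform. Barcodes of at most 100 UMIs, taken here as such droplets, held Ddx5 at 18.4 (female) and 16.2 (male) and Ddx17 at 3.38 and 2.48 UMIs per 10000. Gated lactotropes of the same libraries held Ddx5 at 37.0 and 33.7, above the free RNA, and gated macrophages at 6.74 and 5.79, below it. Gated somatotropes, at 20.1 and 19.4, were nearer to it. For Ddx17 the 10X somatotropes (2.85 and 3.16) and lactotropes (3.98 and 3.42) were near the level of free RNA, and the macrophages (0.37 and 0.33) were well under it.

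Whether the helicases differ between the main hormone-producing classes was tested by pairing lactotropes with somatotropes within each library. Both genes were higher in lactotropes, in 9 of 9 libraries with at least 20 cells of each class. For Ddx5 the lactotrope and somatotrope levels were 37.0 and 20.1 UMIs per 10000 in the 10X female, 33.7 and 19.4 in the 10X male, 26.2 and 15.0 in the mt/hGRF library, and 38.1 and 29.5 in the virgin. They were 28.9 and 24.2, and 22.6 and 19.95, in lactating replicates 1 and 2. In the 8-week Drop-seq libraries they were 47.0 and 24.6 (WT-8wk-0324-female), 36.7 and 22.2 (WT-8wk-0511-female) and 32.7 and 24.5 (WT-8wk-0511-male). The gap was widest in WT-8wk-0324-female and narrowest in lactating replicate 2. WT-8wk-0324-male, with 19 gated lactotropes, had 30.7 and 30.2 and was not in the test.

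For Ddx17 the corresponding levels were 3.98 and 2.85 UMIs per 10000 in the 10X female, 3.42 and 3.16 in the 10X male, 10.7 and 6.19 in the mt/hGRF library, and 6.97 and 4.90 in the virgin. They were 9.95 and 6.71, and 6.46 and 5.11, in lactating replicates 1 and 2, and 9.92 and 5.42 (WT-8wk-0324-female), 14.5 and 8.06 (WT-8wk-0511-female) and 9.37 and 8.18 (WT-8wk-0511-male) in the 8-week Drop-seq libraries. The 10X male had the narrowest gap, and its thinned share of cells went the other way (6.70% of lactotropes and 8.45% of somatotropes), and across libraries the ranges of both classes overlapped, with both 10X libraries low. WT-8wk-0324-male, outside the test, had 9.03 and 8.12.

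**Figure D3:**
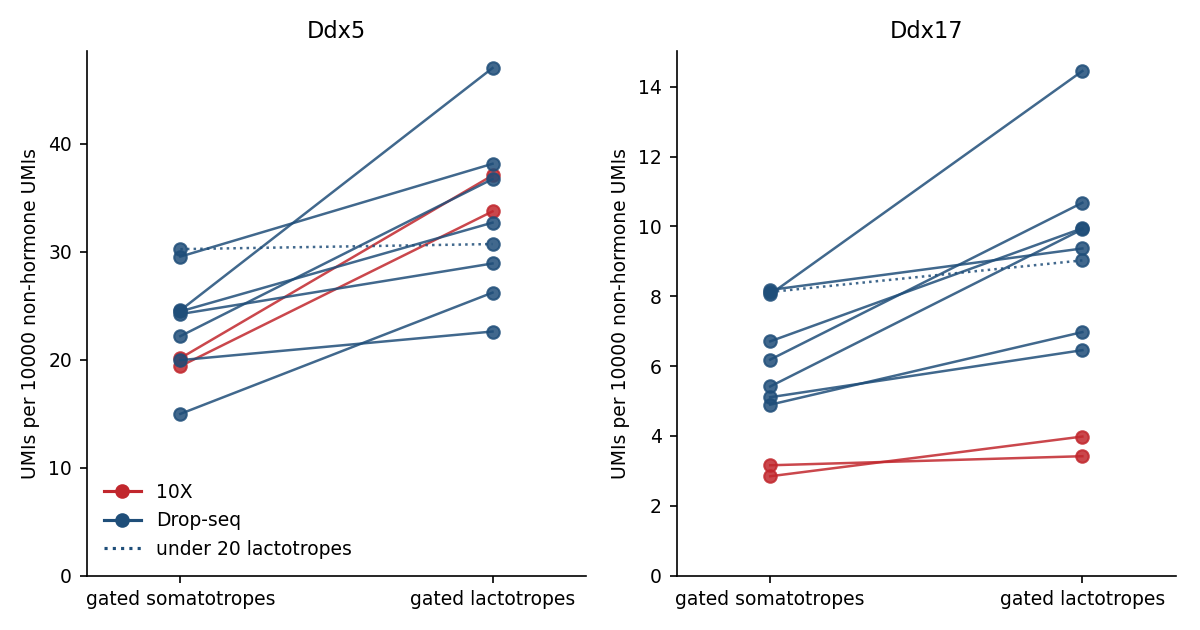
Level of Ddx5 (left) and Ddx17 (right) in gated somatotropes and lactotropes of the same library, in UMIs per 10000 non-hormone UMIs, with 1 line per library coloured by platform. All 9 solid lines rise toward lactotropes for both genes, and the dotted line is WT-8wk-0324-male, with 19 gated lactotropes.

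The mean log2 ratio over libraries was 0.60 (SD 0.29) for Ddx5 and 0.52 (SD 0.28) for Ddx17, each with an exact sign-flip permutation p = 0.00391, the smallest that 9 libraries can give (adjusted p = 0.00781 over 6 tests). In edgeR's quasi-likelihood fit over all genes, Ddx5 was higher by 0.74 on the log2 scale (SE 0.11, adjusted p = 9.39e-07) and Ddx17 by 0.66 (SE 0.11, adjusted p = 1.68e-05). Both helicases were called higher, where 6.32% of the 6692 genes tested were higher and 7.43% lower. The study had named both as lactotrope markers on cells of this series, so these tests are not independent evidence of the direction. The 7 Drop-seq libraries alone gave mean log2 ratios of 0.53 and 0.59 (7 of 7 libraries for each, exact sign-flip permutation p = 0.0156, the smallest possible), and leaving out the 10X female gave 0.70 and 0.66 in edgeR. The 10X pair alone kept Ddx5 but not Ddx17 past the threshold (0.55, edgeR adjusted p = 0.0655), and a difference of the ratio between platforms did not pass (exact permutation over 36 splits, p = 0.278 for Ddx5 and 0.194 for Ddx17).

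Malat1, a long noncoding RNA kept in the nucleus, moved with this difference. It was higher in lactotropes by 0.82 on the log2 scale (edgeR adjusted p = 3.03e-07). Over all libraries with at least 20 cells of the class it averaged 1870 UMIs per 10000 in lactotropes (n = 9) and 1116 in somatotropes (n = 10), while the mitochondrial level averaged 270 and 385. The classes were therefore compared within terciles of the Malat1 level of each library. In the middle tercile, where Malat1 averaged 1524 in lactotropes and 1457 in somatotropes, Ddx5 averaged 38.2 ± 11.9 and 25.3 ± 5.03 and Ddx17 9.60 ± 3.24 and 6.44 ± 2.11 (lactotropes higher in 9 of 9 libraries for both). In the lowest tercile, where Malat1 averaged 685 in lactotropes and 663 in somatotropes, Ddx5 averaged 24.5 and 19.0 and Ddx17 4.99 and 4.43. Lactotropes were higher there in 6 of 9 libraries for Ddx5 and 5 of 9 for Ddx17. In the highest tercile Malat1 averaged 2368 and 2109, Ddx5 34.9 and 24.8 and Ddx17 9.03 and 8.29. Lactotropes were higher there in 8 of 9 libraries for Ddx5 and 7 of 9 for Ddx17. Malat1 itself was higher in lactotropes in 9 of 9 libraries in the middle and highest terciles, so these were not fully matched. Over the terciles the mean log2 ratio was 0.46 for Ddx5 (9 of 9 libraries, exact sign-flip permutation, adjusted p = 0.00781 over 2 tests) and 0.28 for Ddx17 (7 of 9, adjusted p = 0.0469, exact sign-flip test). In edgeR the Ddx17 difference within these terciles was 0.28 and lost its call (adjusted p = 0.110).

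Genes that work with the helicases were read from fixed lists in the same fit, where 6.32% of all genes tested were higher and 7.43% lower. Of 32 splicing factors, 10 were higher in lactotropes and none lower (median 0.26 on the log2 scale, against -0.00 over all genes). The largest were Srrm2, a scaffold of nuclear speckles (0.81), Srsf2, a serine- and arginine-rich splicing factor (0.65), Nono, a paraspeckle protein (0.61), and Luc7l3, a component linked to the U1 particle (0.60). Of 51 other RNA helicase genes, 35 were tested, none was higher and 1 was lower (Ddx60, an interferon-induced helicase, -2.47). Of 11 tested steroid receptor and coactivator genes, Pgr (the progesterone receptor, 2.24) was among those higher, and Nr3c1 (the glucocorticoid receptor, -2.40) and Ncoa1 (a nuclear receptor coactivator, -1.98) were lower, so the list moved both ways (median -0.03). None of 7 tested microRNA processing genes passed the threshold in edgeR (median 0.17). Of 8 nuclear-retained RNAs 4 were higher and Neat1 was lower (-0.77), and 5 of 9 tested immediate early genes were higher, led by Nr4a1 (1.76). A last list held 5 other lactotrope markers, and all 5 were higher, led by Gria2 (2.73). That list had been picked on cells of this series, so it is not independent evidence of its direction, and Gria2 was also in the gate.

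Over 77 class-by-library points, with each library's mean subtracted, the log2 levels of the helicases had a Pearson r of 0.90, a description over points that share libraries and depth. The points include 6 of red blood cells, where hemoglobin in the totals lowers all other genes together, which can raise each r given here. Among 7847 genes compared, those closest to Ddx5 were Rsrp1, Atrx, Rbm39, Son, Prrc2c, Srsf5, Ncor1, Pnisr, Hnrnpa2b1 and Chd4 (r from 0.94 to 0.95). Those closest to Ddx17 were Luc7l3, Malat1, Pnisr, Tnrc6a, Kcnq1ot1, Hnrnpdl, Atrx, Arglu1, Kmt2a and Pabpn1 (r from 0.92 to 0.95). Many genes were thus closer to each helicase than the other helicase was: Ddx17 ranked 54 for Ddx5, and Ddx5 ranked 31 for Ddx17. Pnisr and Atrx stood in both groups, and Malat1 had an r of 0.91 with Ddx5. Within cells, both helicases were seen together in 1.05 to 1.26 times as many cells as their separate shares within depth bins give, above 1 in 10 of 10 libraries. Depth and class still vary within a bin and can raise this ratio by themselves, so it is a description only.

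Cells were next ordered by the share of their UMIs that came from Prl or from Gh, to ask whether the helicases follow hormone output across cells of any class. Terciles were taken within each library and within bins of non-hormone depth. The top tercile of Prl share held Ddx17 at a lowest of 2.89, a median of 6.69 and a highest of 11.3 UMIs per 10000 over the 10 libraries, and the bottom tercile at 2.05, 4.80 and 7.75. Ddx17 was higher in the top tercile in 10 of 10 libraries (mean log2 ratio 0.42, exact sign-flip permutation, adjusted p = 0.00781) and by 0.37 in edgeR (SE 0.09, adjusted p = 0.00205). Ddx5 stood at 18.6, 25.4 and 30.8 in the top and 15.5, 20.1 and 28.4 in the bottom tercile, higher in 9 of 10 libraries (0.25, exact sign-flip permutation, adjusted p = 0.00879), with an edgeR difference of 0.19 that did not pass (SE 0.10, adjusted p = 0.208). In edgeR 1 of the 2 helicases was thus called higher, where 8.99% of the 13002 genes tested were (20.5% in either direction). Malat1 was also higher at high Prl share in 9 of 10 libraries, with means of 1308 UMIs per 10000 in the top and 1137 in the bottom tercile. Its edgeR difference of 0.15 did not pass (SE 0.16, adjusted p = 0.599). Where the terciles were also taken within terciles of the Malat1 level, the mean log2 ratio was 0.16 for Ddx5 (7 of 10 libraries, exact sign-flip permutation, adjusted p = 0.0449) and 0.29 for Ddx17 (10 of 10, adjusted p = 0.00391, exact sign-flip test).

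The relation to Prl depended on which cells were taken. When cells gated to the 7 non-endocrine classes were left out, an alternative added after the data were seen, the mean log2 ratio fell to 0.02 for Ddx5 (5 of 10 libraries higher) and 0.09 for Ddx17 (7 of 10), neither past the threshold (exact sign-flip permutation, adjusted p = 0.801 and 0.302). With the same cells but the hormone genes kept in the totals, both sign-flip calls also ended, at 0.028 for Ddx5 (6 of 10 libraries, exact sign-flip permutation, adjusted p = 0.764) and 0.20 for Ddx17 (8 of 10, adjusted p = 0.0563, exact sign-flip test). That setting cannot decide the relation, because Prl in the totals lowers every other gene in the top tercile by arithmetic. Within gated lactotropes of 7 libraries with enough cells, Ddx5 had a median of 35.2 UMIs per 10000 in the top and 36.5 in the bottom tercile of Prl share and Ddx17 6.23 and 8.51, with Ddx5 lower at high Prl in 6 of 7 libraries and Ddx17 in 5 of 7 (mean log2 ratios -0.10 and -0.31, exact sign-flip permutation, adjusted p = 0.125 and 0.156). With the pseudogene-rich barcodes kept, the edgeR call for Ddx17 was also lost (0.13, adjusted p = 0.677), whereas the mean log2 ratio over libraries was larger and stayed past the threshold, at 0.61 for Ddx5 (9 of 10 libraries, exact sign-flip permutation, adjusted p = 0.0117) and 0.49 for Ddx17 (10 of 10, adjusted p = 0.00781, exact sign-flip test).

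Gh share went the other way for Ddx5. The top tercile of Gh share held Ddx5 at a lowest of 13.9, a median of 20.1 and a highest of 27.5 UMIs per 10000 and the bottom tercile at 19.5, 24.0 and 29.1, lower at high Gh in 8 of 10 libraries (mean log2 ratio -0.26, exact sign-flip permutation, adjusted p = 0.0352). The exceptions were lactating replicate 1 and WT-8wk-0324-male. That call was lost without the 10X female, the 10X male, mt/hGRF, WT-8wk-0324-female or WT-8wk-0511-male (exact sign-flip permutation, adjusted p = 0.0703 for each), and without cells under 300 non-hormone UMIs (-0.24, lower in 7 of 10 libraries, adjusted p = 0.0547, exact sign-flip test). In edgeR the difference was -0.49 (SE 0.11, adjusted p = 0.000929), so that 1 of the 2 helicases was called lower, where 14.7% of the 13265 genes tested were. With the pseudogene-rich barcodes kept the Ddx5 difference was -0.34 in edgeR and lost its call (adjusted p = 0.282), and its mean log2 ratio turned to 0.18. For Ddx17 the mean log2 ratio was 0.01 (lower in 6 of 10 libraries, exact sign-flip permutation, adjusted p = 0.916) and the edgeR difference, which rescales the libraries by their other genes, was -0.23 (SE 0.10, adjusted p = 0.0811).

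Within gated somatotropes both genes were lower at high Gh share. From the bottom to the top tercile of Gh share, which averaged 5.44% and 30.6% of all UMIs, the lowest, median and highest Ddx5 level went from 21.1, 28.1 and 36.5 to 11.6, 17.5 and 27.9 UMIs per 10000. For Ddx17 they went from 3.75, 6.92 and 9.69 to 2.09, 5.20 and 7.83. Both helicases were lower at high Gh in 10 of 10 libraries (mean log2 ratio -0.71 for Ddx5 and -0.59 for Ddx17, exact sign-flip permutation, adjusted p = 0.00195 for each, the smallest possible). Malat1 was lower there too in 10 of 10 libraries, with means of 880 at the top and 1333 at the bottom. Terciles within terciles of the Malat1 level were taken only over cells of all classes together. There Ddx5 was lower at high Gh in 10 of 10 libraries (mean log2 ratio -0.28, exact sign-flip permutation, adjusted p = 0.00391) and Ddx17 in 9 of 10 (-0.11, adjusted p = 0.0312, exact sign-flip test). Within gated somatotropes the part of Malat1 was not tested.

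**Figure D4:**
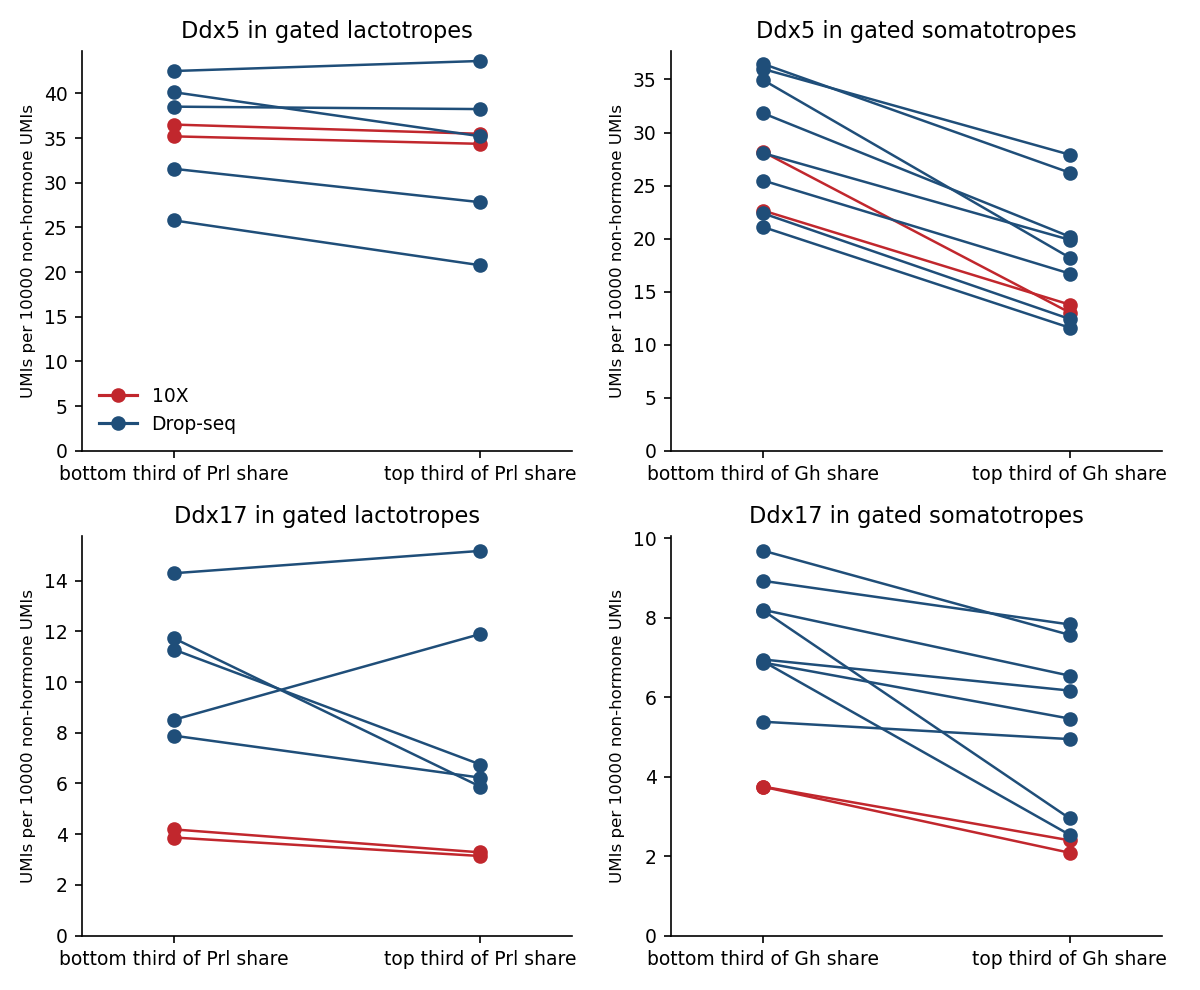
Ddx5 (top) and Ddx17 (bottom) in the bottom and top tercile of gated lactotropes by Prl share (left, 7 libraries) and of gated somatotropes by Gh share (right, 10 libraries), in UMIs per 10000 non-hormone UMIs, with 1 line per library coloured by platform. All 10 lines fall on the right for both genes, whereas on the left 6 of 7 fall for Ddx5 and 5 of 7 for Ddx17.

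The sign of these relations differed with depth. In cells with at least 200 and under 400 non-hormone UMIs, Ddx5 averaged 14.9 UMIs per 10000 at high and 29.2 at low Gh share (lower in 10 of 10 libraries), and from 400 up to 800 it averaged 21.1 and 30.9 (10 of 10). In cells with 1600 or more it averaged 18.7 at high and 11.7 at low Gh share, higher in 10 of 10 (exact sign-flip permutation, adjusted p = 0.00558 over 20 tests for each of the 3). Ddx17 moved likewise, lower in the shallow bin (3.56 against 6.001, 9 of 10) and higher at 1600 or more (5.02 against 2.43, 10 of 10). By Prl share Ddx5 was lower in the shallow bin (16.5 against 23.9, 9 of 10, a call that was lost with the pseudogene-rich barcodes kept, at a difference of -4.67, 7 of 10) and higher at 1600 or more (20.3 against 12.4, 10 of 10). The change of the top-minus-bottom difference from this shallow bin to the deepest was positive in 10 of 10 libraries for both genes and both hormones (21.3 for Ddx5 and 5.03 for Ddx17 by Gh, 15.3 and 4.56 by Prl, exact sign-flip permutation, adjusted p = 0.00195 each). These bin tests were chosen after the levels had been seen.

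The shallow bin was also shaped by the filter on cells, since the Drop-seq minimum of 300 UMIs counts hormone UMIs and a cell with under 300 non-hormone UMIs passed it only with enough hormone. Cells with under 300 non-hormone UMIs were therefore left out as a further alternative, chosen after the data were seen. In the remaining shallow cells the Ddx5 difference between high and low Gh share was -14.4 UMIs per 10000 (SD 13.4), still lower at high Gh in 10 of 10 libraries (exact sign-flip permutation, adjusted p = 0.00446 over 16 tests). The other shallow contrasts lost their calls: Ddx17 averaged 4.42 and 6.004 by Gh share (lower in 7 of 10, adjusted p = 0.0906, exact sign-flip test), and by Prl share Ddx5 averaged 22.0 and 24.2 (lower in 8 of 10, adjusted p = 0.114, exact sign-flip test) and Ddx17 5.19 and 6.02 (lower in 5 of 10, adjusted p = 0.365, exact sign-flip test). The change from shallow to deepest cells was 21.5 for Ddx5 (10 of 10) and 4.17 for Ddx17 (9 of 10) by Gh share and 10.1 and 3.16 (10 of 10 each) by Prl share (exact sign-flip permutation, adjusted p = 0.00586 for Ddx17 by Gh and 0.0026 for the others). From 400 UMIs up, the filter left out no cell of either tercile.

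The classes in the deepest cells differed between terciles. In the deepest bin the bottom tercile of Gh share held a mean of 22.6% macrophages and 22.5% red blood cells by the gate, both low in the helicases, whereas the top tercile held 43.8% somatotropes. With the 7 non-endocrine classes left out, Ddx5 in the deepest bin averaged 16.6 at high and 19.1 at low Gh share and Ddx17 4.55 and 4.80, neither apart (higher in 4 of 10 libraries each, exact sign-flip permutation, adjusted p = 0.348 and 0.947). In those cells Ddx5 was lower at high Gh in 10 of 10 libraries in each of the 3 bins from 200 up to 1600 UMIs, and over all depths both helicases were lower at high Gh in 10 of 10 libraries (mean log2 ratio -0.63 for Ddx5 and -0.44 for Ddx17, exact sign-flip permutation, adjusted p = 0.00391 each). The change of the difference from the shallow to the deepest bin stayed positive in them, at 13.8 for Ddx5 (9 of 10 libraries, exact sign-flip permutation, adjusted p = 0.00391) and 2.83 for Ddx17 (10 of 10, adjusted p = 0.0026, exact sign-flip test) by Gh share and at 11.4 and 2.85 by Prl share (10 of 10 each, adjusted p = 0.0026, exact sign-flip test). The gate itself depended on depth. With all cells, ungated cells averaged 65.8% of the bottom and 86.2% of the top tercile of Prl share in the shallow bin. In the deepest bin they averaged 6.10% and 29.2%. Any ungated non-endocrine cells stayed in, mostly at low depth, so this change cannot be told apart from the reach of the gate. By Prl share Ddx5 in the deepest bin was still higher at high Prl, at 19.68 against 16.97 (8 of 10 libraries, exact sign-flip permutation, adjusted p = 0.0477), but for Ddx17 the difference there was 0.28 (6 of 10, adjusted p = 0.661, exact sign-flip test) against 2.34 with all cells. From 800 up to 1600 UMIs, where both genes had been higher at high Prl with all cells (5.13 for Ddx5 in 9 of 10 libraries and 2.51 for Ddx17 in 10 of 10), the differences without these cells were 0.65 (5 of 10) and 1.17 (7 of 10), and both calls were lost (exact sign-flip permutation, adjusted p = 0.911 and 0.191).

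**Figure D5:**
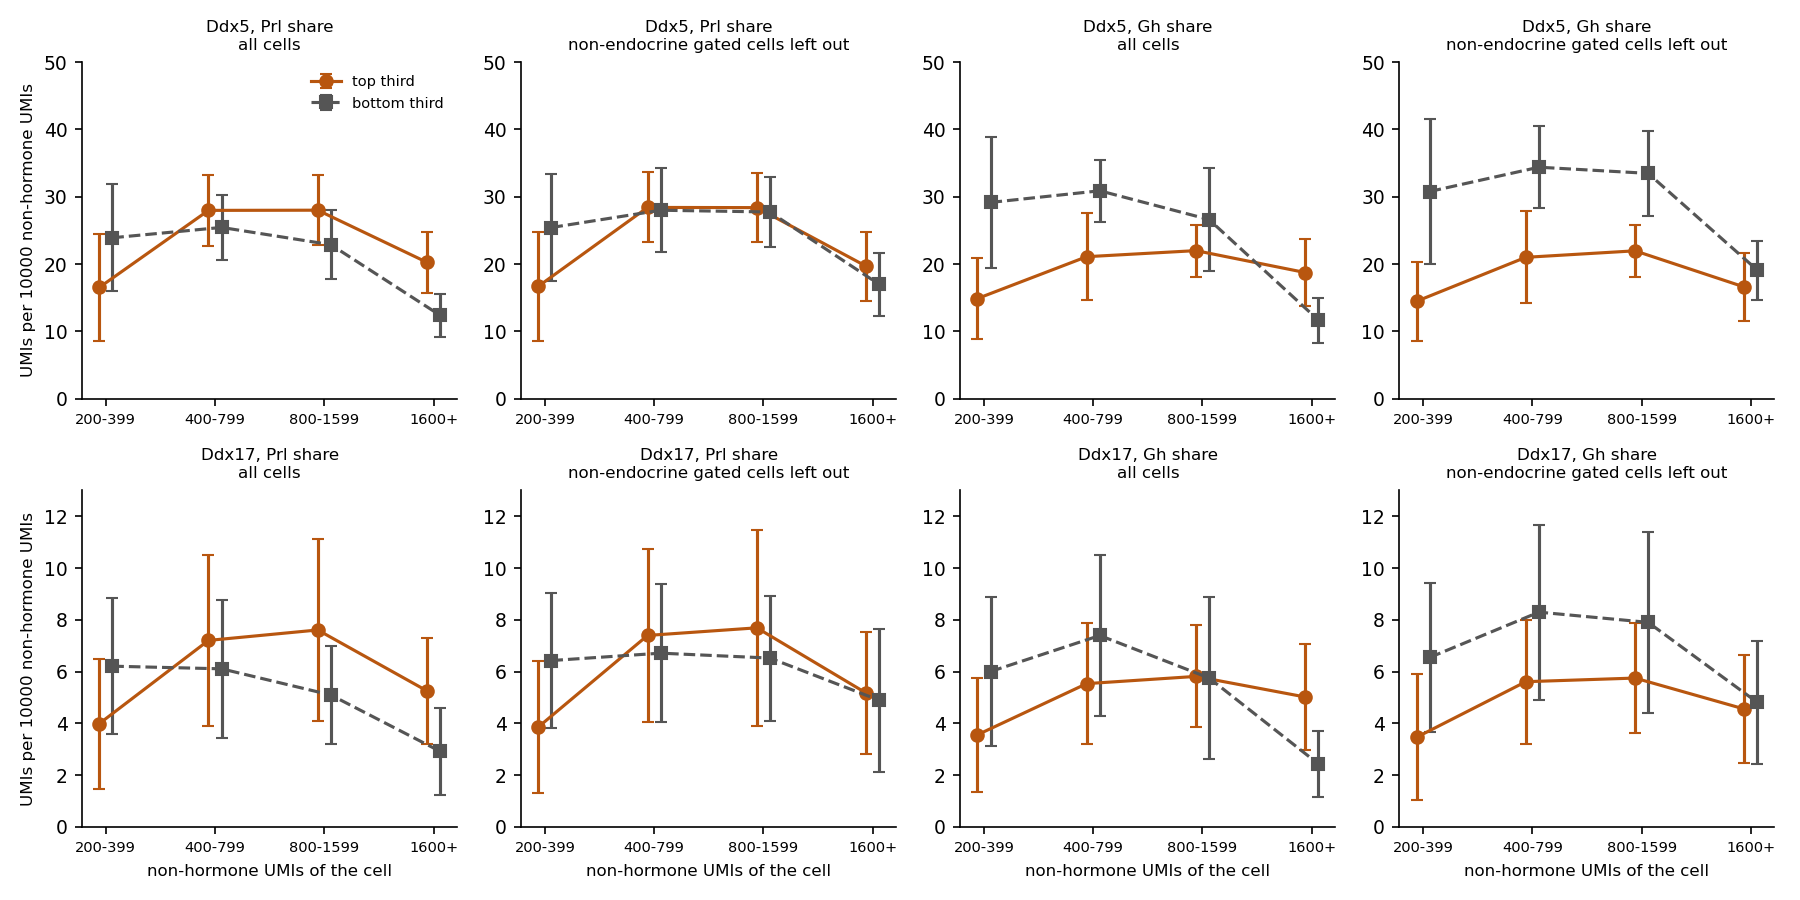
Ddx5 (top) and Ddx17 (bottom) against non-hormone UMIs per cell in 4 bins, in the top and bottom tercile of cells by Prl share (left 4 panels) and Gh share (right 4 panels), with all cells or with gated non-endocrine cells left out. Points are means over 10 libraries and bars SD, in UMIs per 10000 non-hormone UMIs, and with all cells the lines for Ddx5 by Gh share cross in the deepest bin (18.7 at the top and 11.7 at the bottom), whereas without non-endocrine cells they do not (16.6 and 19.1).

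Taking both hormones at once, cells above the median of their depth bin for Prl and at or below it for Gh had the highest Ddx5 in 9 of 10 libraries (mean 30.6 ± 6.46 UMIs per 10000) and the highest Ddx17 in 8 of 10 (7.61 ± 3.03). Cells above it for both hormones averaged 22.8 ± 4.47 and 6.15 ± 2.27, and cells above it for Gh alone 23.5 ± 4.68 and 6.004 ± 2.10. Cells at or below it for both had the lowest Ddx17 in 10 of 10 libraries (4.68 ± 1.77). Gated macrophages and red blood cells, both low in Ddx17, made up a mean of 13.9% and 4.12% of these cells and at most 2.27% and 1.13% of the others. With the 7 non-endocrine classes left out and the medians taken again, a further alternative chosen after the data were seen, cells at or below the median for both averaged 28.7 ± 4.78 for Ddx5 and 6.69 ± 2.42 for Ddx17, and had the lowest Ddx17 in 2 of 10 libraries. The Prl-alone cells still had the highest Ddx5 in 7 of 10 libraries (33.0 ± 7.36) and the highest Ddx17 in 9 of 10 (8.34 ± 3.44). With all cells Malat1 followed the first pattern, with 1659 in the Prl-alone cells and 1165 to 1234 in the others, and its part in these differences was not tested.

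The companion genes were read by Gh and by Prl share from the fits with all cells, whose classes differed between terciles. They were not read without the non-endocrine classes. By Gh share, they moved as follows in edgeR, where 11.7% of all genes tested were higher and 14.7% lower. All 10 immediate early genes were lower at high Gh, led by Fos (-2.12), and 4 of 32 splicing factors were lower (Srrm2 -0.55, Srsf2 -0.39, Son -0.38, Sf3b1 -0.35) and none higher. Of 49 tested helicase genes 2 were higher and 2 lower. The share of splicing factors that were lower was thus near that of all genes. By Prl share, where 8.99% of all genes tested were higher and 11.5% lower, 4 of 32 splicing factors were higher, led by Srsf6 (0.41), and none lower. Of the 10 immediate early genes 5 were lower at high Prl as well, led by Atf3 (-1.79), and Nr4a1 was higher (0.60). Of 14 tested steroid receptor and coactivator genes, 4 were higher, led by Esr1, the estrogen receptor (1.32), and 4 lower, led by the acetyltransferase Kat2b (-1.26), over a median of -0.01 against 0.02 for all genes.

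No contrast of sex, lactation or transgene called either helicase. In bulk sums over all cells, a smaller share of a class and less RNA per cell cannot be told apart, so the gated class is given beside the whole library. For sex, gated lactotropes held Ddx5 at 37.0 and 36.7 UMIs per 10000 in the 10X female and WT-8wk-0511-female and 33.7 and 32.7 in the matching males, a lower male level in both pairs. WT-8wk-0324-female (47.0) had no male with enough lactotropes. Ddx17 stood at 3.98 and 14.5 in these females and 3.42 and 9.37 in the males. The edgeR differences, male minus female, were -0.29 (SE 0.34) for Ddx5 and -0.35 (SE 0.33) for Ddx17, and 0 of 2 were called, where 0.951% of genes tested were (0.67% higher and 0.281% lower). Intervals of 2 SE ran from -0.96 to 0.38 and from -1.003 to 0.31, so a 1.5-fold lower male level lay within both intervals.

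In gated somatotropes the 10X female, WT-8wk-0324-female and WT-8wk-0511-female held Ddx5 at 20.1, 24.6 and 22.2 UMIs per 10000 and the males at 19.4, 30.2 and 24.5, so males were higher in 2 of 3 pairs and the sexes overlapped. Ddx17 stood at 2.85, 5.42 and 8.06 in females and 3.16, 8.12 and 8.18 in males, higher in 3 of 3 pairs. The edgeR differences were 0.12 (SE 0.24) and 0.21 (SE 0.25), with 0 of 2 called (0.149% of genes tested, 0.062% higher and 0.0868% lower). Over all cells they were -0.14 (SE 0.24) and -0.15 (SE 0.28), with 0 of 2 called (0.0544%, 0.0272% in each direction). Drop-seq libraries of the same number deviated together, so the pair was also fitted as a block, with the 10X libraries as a pair of their own. No helicase was called under that replicate block either (Ddx5 -0.14 and Ddx17 -0.13 over all cells, edgeR adjusted p = 0.929 and 0.904).

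Between virgin and lactating females neither helicase passed the test. In gated lactotropes Ddx5 stood at 38.1 UMIs per 10000 in the virgin and 28.9 and 22.6 in the lactating libraries, below the virgin in both. Ddx17 stood at 6.97 in the virgin and 9.95 and 6.46 in the lactating libraries, on either side of it, so that lactating replicate 2 was below the virgin for both genes. Malat1 was higher in both lactating libraries (2225 and 2309 against 1363), and its part was not tested. The edgeR differences, lactating minus virgin, were -0.36 (SE 0.40) for Ddx5 and 0.44 (SE 0.43) for Ddx17, and 0 of 2 were called (0.0192% of genes tested). Over all cells they were -0.19 (SE 0.37) and 0.34 (SE 0.42), with 0 of 2 called (0.0113%, 0.00566% in each direction). The single virgin library takes its spread from the other groups of the fit.

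In gated somatotropes of the mt/hGRF library Ddx5 stood at 15.0 UMIs per 10000, below both 8-week WT females by Drop-seq (24.6 and 22.2), and it was the lowest of all 10 libraries. Ddx17 stood at 6.19, between them (5.42 and 8.06). The edgeR differences, transgenic minus WT, were -0.51 (SE 0.35) and -0.01 (SE 0.39), with 0 of 2 called (0.958% of genes tested), and over all cells -0.29 (SE 0.38) and -0.00 (SE 0.42), with 0 of 2 called (0.0339%). In these 7 contrasts no helicase reached an unadjusted p under 0.05 in edgeR (the lowest was 0.153, Ddx5 in transgenic somatotropes), and DESeq2 called none. The transgenic group was 1 library, so its difference has no replicate check of its own.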

How the data were processed

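Pituitary cells of 10 mouse libraries were measured by 10X Genomics (n = 2) or Drop-seq (n = 8). The deposited tables hold raw counts of UMIs per gene symbol and barcode, not normalized by the authors. For Drop-seq, STAR 2.5.2a had mapped reads onto mm10 and exonic UMIs were counted, and 10X counts came from Cell Ranger, its version and annotation not given in the sources used here. Cells were kept by the study's limits (Drop-seq at least 300 UMIs and 100 to 4000 genes, 10X more than 200 and fewer than 3000 genes, mitochondrial share below 10%), and barcodes with at least 200 ribosomal protein pseudogene UMIs per 10000 were set aside. Counts were summed per library and class (at least 20 cells) and compared by the quasi-likelihood test of edgeR 4.0.16 (TMM scaling, two-sided, Benjamini-Hochberg over all genes tested, library as a block for comparisons within libraries, platform as a covariate for sex), in R 4.3.3. Both helicases passed the low-count filter in every comparison. Terciles by hormone share were taken within library and 5 depth bins. Sign-flip tests were exact over libraries. P-values measure the spread between libraries, several of which were pools of mice. Deviations of 8-week libraries from their sex mean over both platforms correlated within the 0324 pair (0.62), the 0511 pair (0.78) and the 10X pair (0.88). The 10X titles carry no number, so the value of that pair cannot be told apart from its platform. Among the Drop-seq libraries alone, same-numbered libraries correlated at 0.51, hence the block as an alternative. Counting intervals are 95% and cover counting error only. The helicases and all gene lists were chosen with earlier results of these data known. The lactotrope, somatotrope and part of the gonadotrope gate markers came from the study's marker table, chosen there on the 10X libraries. The other gate markers were textbook ones. The genes named are the helicases, their 10 nearest genes by correlation and up to 4 per list, of which 1 is not reported here. Other settings were DESeq2 1.42.0, RLE scaling, no low-count filter, hormone genes kept, Malat1, mitochondrial and ribosomal protein genes removed, a stricter gate, Malat1 terciles, thinning and leaving out each library. The fit was tested on simulated data.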

Additional observations from a re-analysis of the deposited data

Results flagged for a closer look

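Both helicases appeared in data outside the comparisons, in 10X barcodes of at most 100 UMIs that no class used. These barcodes held Ddx5 at 18.4 UMIs per 10000 non-hormone UMIs in the female (95154 barcodes) and 16.2 in the male (95085 barcodes), and Ddx17 at 3.38 and 2.48, where gated macrophages of the same libraries held Ddx5 at 6.74 and 5.79. Each study group held 1 or 2 libraries, so no group was large enough for a test of single outlying libraries.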

How the results depend on the processing

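Both helicases stayed higher in lactotropes under every setting tried, but the Ddx17 call was lost within Malat1 terciles (0.28) and on 10X alone (0.55), while leaving out a library gave 0.70 to 0.80 for Ddx5 and 0.64 to 0.72 for Ddx17. By Prl share, gated lactotropes alone turned the edgeR difference to -0.064 for Ddx5 and -0.20 for Ddx17 and the mean log2 ratio over libraries to -0.10 and -0.31, and the Ddx17 edgeR call was lost without gated non-endocrine cells (0.12) and with pseudogene-rich barcodes kept (0.13). By Gh share, Ddx17 became called by DESeq2 (-0.25) and, in edgeR, in gated somatotropes (-0.66), within Malat1 terciles (-0.24), without gated non-endocrine cells (-0.56) and without WT-8wk-0324-male (leaving out a library gave -0.25 to -0.15), and Ddx5 lost its call with pseudogene-rich barcodes kept (-0.34). The mean log2 ratio of Ddx17 by Gh, near 0, turned to -0.44 without gated non-endocrine cells, -0.59 in gated somatotropes and -0.11 within Malat1 terciles, and leaving out a library gave -0.052 to 0.073. With hormone genes in the totals it was -0.35, but Gh in the totals lowers every other gene in the top tercile by arithmetic. The mean log2 ratio of Ddx5 by Gh turned to 0.18 with pseudogene-rich barcodes kept. Its Gh call by sign flips (mean log2 ratio -0.31 to -0.19 over the libraries left out) was lost without any of 5 libraries. In depth bins, leaving out gated non-endocrine cells turned the Gh difference to -2.49 for Ddx5 at 1600 or more UMIs and to -2.15 and -0.25 for Ddx17 from 800 up to 1600 and at 1600 or more, and keeping pseudogene-rich barcodes turned Ddx17 by Prl under 200 UMIs to 0.56. Leaving out cells under 300 non-hormone UMIs changed no edgeR call of a helicase by either share, and ended the calls in the bin below 400 UMIs for Ddx17 by Gh (-1.58) and for Ddx5 (-2.24) and Ddx17 (-0.83) by Prl.

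The platform call for Ddx17 was weaker with pseudogene-rich barcodes kept (0.63) and ran from 0.83 to 1.12 when a library was left out. Signs turned for differences that were not called: sex over all cells, Ddx17 0.022 with pseudogene-rich barcodes kept and -0.32 to 0.077 when a library was left out; sex in somatotropes, Ddx5 -0.0054 (without WT-8wk-0324-male) to 0.23; transgene in somatotropes, Ddx17 0.11 with no filter, 0.015 with pseudogene-rich barcodes kept, 0.013 with the stricter gate and -0.21 to 0.29 when a library was left out; transgene over all cells, Ddx17 0.056 with no filter, 0.11 with pseudogene-rich barcodes kept and -0.31 to 0.37 when a library was left out. The replicate block, where the numbers pair the libraries, gave 136, 74 and 25 genes past the threshold for sex over all cells, in lactotropes and in somatotropes against 8, 44 and 12, and changed no call of a helicase.

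Counts of genes past the threshold moved by more than 1.5 times in these cases: lactotrope against somatotrope 920, with 469 within Malat1 terciles and 531 by Drop-seq alone; Prl share 2670, with 49 in gated lactotropes; Gh share 3492, with 658 in gated somatotropes and 2316 without non-endocrine cells; sex over all cells 8, with 51 with no filter, 26 by DESeq2, 0 with pseudogene-rich barcodes kept and 7 to 15 (without WT-8wk-0511-female); sex in lactotropes 44, with 28 with no filter, 9 by DESeq2, 15 with the stricter gate and 7 (without the 10X female) to 46; sex in somatotropes 12, with 25 with no filter; transgene in somatotropes 66, with 39 with no filter, 5 by DESeq2 and 20 (without WT-8wk-0511-female) to 103 (without WT-8wk-0511-male); transgene over all cells 6, with 162, 14, 0 and 4 (without WT-8wk-0511-female) to 18 (without WT-8wk-0324-male); lactation over all cells 2, with 23, 7, 0 and 0 (without lactating replicate 1) to 9 (without WT-8wk-0324-male); lactation in lactotropes 1, with 1 to 16 (without WT-8wk-0511-female); platform 3038, with 571 (without the 10X male) to 3489. Of the neighbouring class pairs, 4 of 16 passed by level and 0 of 16 by the thinned share. The cause of these moves was not tested. Leaving out the virgin or the mt/hGRF library left its contrast without a group, so these were not run. Depth limits single cells: Ddx17 was seen in 6863 of 22553 cells and Ddx5 in 15488.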
